A study of Mus musculus with 12 samples.

Results

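Transcripts of 4 deubiquitinase families were examined in myeloid-derived suppressor cells (MDSCs) sorted from mouse liver tumors. The members were the gene symbols that begin with Usp and a number, with Otub or Otud, with Uchl and a number, or with Fam63, except Usp18, whose product removes ISG15 rather than ubiquitin. This rule found 72 of the 24346 symbols in the tables. Of these, 55 had at least 1 FPKM in at least 2 of the 12 libraries and are described here, comprising 42 of 55 USP, 8 of 10 OTU, 3 of 5 UCH and 2 of 2 MINDY symbols (Fam63a and Fam63b are now named Mindy1 and Mindy2). FPKM counts a gene's fragments relative to transcript length and to all mapped fragments of the library, so that values of different genes are compared per length.

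The libraries were polymorphonuclear (PMN-) and monocytic (M-) MDSCs of wild-type C57BL/6J mice, young adult females that carried an orthotopic tumor of Hepa 1-6, a mouse hepatocellular carcinoma line. PMN-MDSCs had been sorted as CD11b+ Ly-6C int Ly-6G+ and M-MDSCs as CD11b+ Ly-6C high Ly-6G- cells. The mice were given Vehicle, MS275 (MS-275, entinostat) or CXD101, both inhibitors of histone deacetylases (HDACs) of class I, injected daily at the same dose. Each of the 6 combinations of subset and treatment had 2 libraries. All groups bore the tumor, so no tumor-free cells serve as a reference. The study describes the mouse treatment for its M-MDSC experiments and not for the PMN-MDSC libraries. It calls its MDSC expression profiles biological replicates, while the labels tie no library to a mouse. The p-values measure the spread between these libraries.

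Ubiquitin is attached to proteins by E1, E2 and E3 enzymes, and deubiquitinases cut it off again. The USP, OTU, UCH and MINDY families are all cysteine proteases. They rescue proteins from the proteasome, recover ubiquitin from chains that have reached it, process newly made ubiquitin precursors, and remove the non-degradative marks that carry signals on histones, endosomal receptors and the adaptors of Toll-like and cytokine receptors. In myeloid cells they are best known for setting the strength of NF-κB and interferon signalling. A few symbols of the rule encode no active deubiquitinase: Usp6nl encodes a GTPase-activating protein for Rab proteins, Usp39 lacks protease activity, and Uchl1os is an antisense RNA.

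The steps that separate low FPKM values gave an approximate depth of 8300000 to 10700000 reads in the M-MDSC and 7000000 to 8100000 in the PMN-MDSC libraries. The neutrophil list, of 10 genes, was higher in PMN-MDSCs for 10 of 10 genes and summed to 71571 to 296062 FPKM there against 11427 to 26020 in M-MDSCs. Among monocyte markers, Ccr2 stood at 27.5 to 40.7 FPKM in PMN-MDSCs and 124 to 147 in M-MDSCs, whereas Csf1r stood at 159.9 and 145 in vehicle PMN-MDSCs and 123 and 123 in vehicle M-MDSCs. In the treated libraries the order of Csf1r turned, at 59.9 to 72.4 FPKM in PMN-MDSCs and 94.9 to 104 FPKM in M-MDSCs. Ly6g was not analysed here. Of the 6 macrophage markers, 4 were higher and 1 lower in vehicle PMN-MDSCs than in vehicle M-MDSCs. C1qb stood at 23.7 and 18.8 against 15.5 and 14.0 FPKM and Adgre1 at 88.4 and 86.6 against 38.9 and 41.5. Mrc1 stood at 50.6 and 48.0 against 79.9 and 81.3 FPKM. Over the mean of the 3 treatments, 2 of the 6 were higher and 1 lower. The transcripts of S100a8 and S100a9 took 1.78 to 4.28% of the FPKM sum in M-MDSCs and 10.2 to 30.9% in PMN-MDSCs. Erythroid markers summed to at most 0.818 FPKM and lymphocyte and NK cell markers to at most 3.89 FPKM in every library.

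The 55 members together summed to 797 to 867 FPKM in the PMN-MDSC libraries and to 785 to 902 FPKM in the M-MDSC libraries, so the summed levels overlapped. As a share of all FPKM, which sum to more in PMN-MDSCs, the members took 0.0935 to 0.129% there and 0.138 to 0.155% in M-MDSCs, without overlap. That total includes S100a8 and S100a9, at 10.2 to 30.9% of it in PMN-MDSCs and 1.78 to 4.28% in M-MDSCs. The members' share of a total without them was not computed. The composition differed. In PMN-MDSCs the 6 members with the highest mean level were Fam63a (57.1 FPKM), Otub1 (53.1), Usp4 (46.6), Usp19 (39.9), Usp7 (37.7) and Usp25 (37.5). In M-MDSCs they were Otub1 (51.3), Uchl3 (50.4), Usp1 (45.2), Usp25 (43.5), Usp5 (41.4) and Uchl5 (38.8). Otub1, which blocks E2 enzymes as well as cutting chains linked through lysine 48, and Usp25 were thus the members on both lists. Neighbours in these orders often overlapped: Usp7 ranged from 34.7 to 41.3 FPKM over the 6 PMN-MDSC libraries and Usp25 from 34.9 to 42.9.

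The 17 symbols below the limit were Otud6a, Otud7a, Uchl1os, Uchl4, Usp13, Usp26, Usp27x, Usp29, Usp43, Usp50, Usp51, Usp9y and 5 Usp17-like genes. Of these, 9 were listed at 0 in all 12 libraries, among them Usp13, Otud7a and Usp43. The nearest to the limit from below was Usp27x, whose highest value was 0.610 FPKM, and the nearest from above was Usp11, which reached 1 FPKM in 4 libraries and peaked at 1.87 FPKM. The limit was met through 1 subset by Usp11 and Usp44, which were not tested within PMN-MDSCs, and by Otud1, which was not tested within M-MDSCs.

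The first question was how PMN-MDSCs differ from M-MDSCs. Over the mean of the 3 treatments, 20 of 55 members differed between the subsets (44.9% of all genes). Such a call needed an adjusted p below 0.05 (limma, Benjamini-Hochberg) and a difference of over 1.5-fold, here and below. PMN-MDSCs had 10 members higher, 18.2% of the 55, where 22.5% of all 11662 genes tested were higher, and 10 members lower, again 18.2%, where 22.3% of all genes were lower. Both shares lay below those of all genes. The members' median difference was 0.05 on the log2(FPKM + 1) scale and that of all genes 0.00. Scaling every library to one FPKM sum moved the median of all genes to -0.36, and the members then split into 4 higher and 20 lower (all genes into 1405 and 4465). Under that scaling Fam63b, Otud3, Otud5, Otud7b, Usp21 and Usp22 kept their direction and fell short of the fold limit, and differences are given relative to a median of 0. By the adjusted p alone, with no fold limit, 20 members were higher and 20 lower over the mean of the treatments (41.8% and 41.3% of all genes), and 14 and 11 within vehicle (30.5% and 31.5%). All 6 PMN-MDSC libraries lay above all 6 M-MDSC libraries for 12 members (24.1% of all genes) and below them for 11 (23.2% of all genes).

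**Figure D1:**
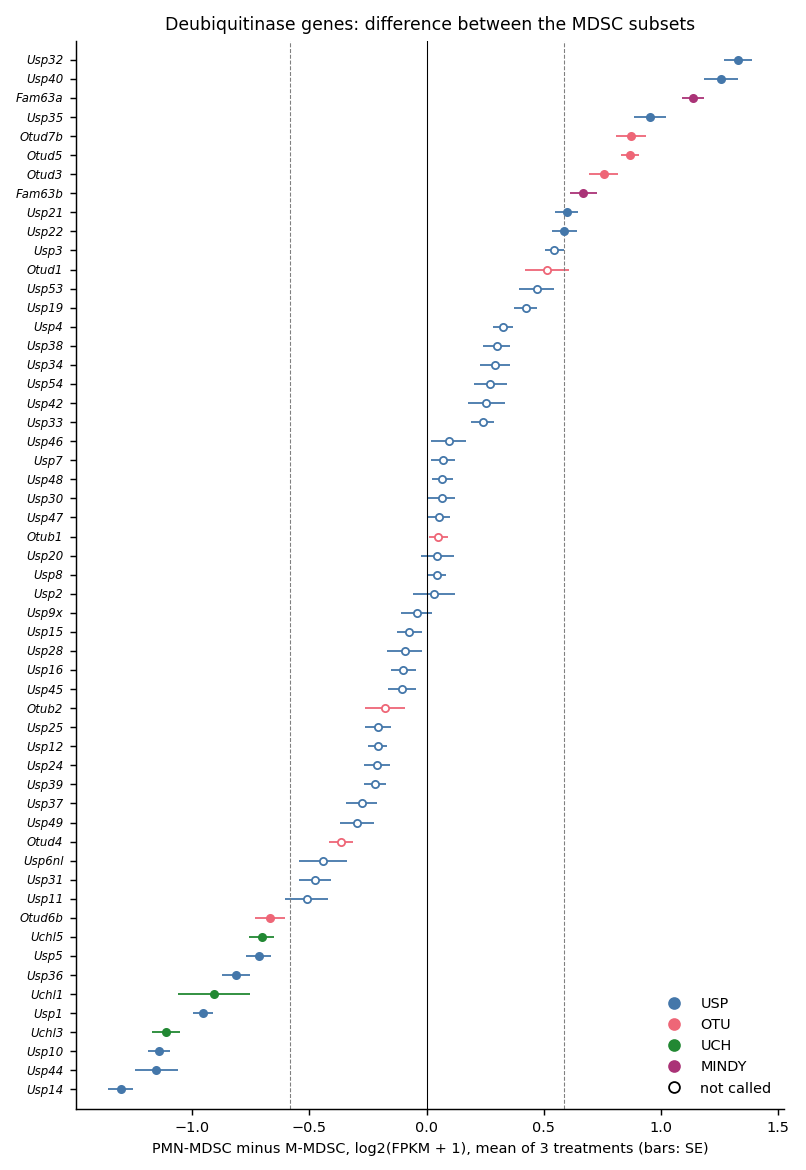
Difference between PMN-MDSCs and M-MDSCs for the 55 members, in log2(FPKM + 1) as the mean of 3 treatments, with bars for the standard error; filled points were called, dashed lines mark a fold change of 1.5 and colors mark the family. Usp32 (1.33) and Usp40 (1.26) stand at the top and Usp14 (-1.31) at the bottom, and the 3 UCH members (green) all lie on the lower side.

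Members listed for the proteasome or ubiquitin recycling were lower in PMN-MDSCs. The list was chosen with earlier results of these data known. Of its 5 members, Usp13 was listed at 0 and the 4 tested were all lower, where 22.3% of all genes were. Their median difference was -0.91. Usp14, which binds the regulatory particle of the proteasome and trims chains from arriving substrates, stood at 19.2 and 20.0 FPKM in the vehicle, 9.38 and 8.92 in the MS-275 and 11.3 and 11.9 in the CXD101 libraries of PMN-MDSCs. The M-MDSC libraries held 40.3 and 36.9, 27.5 and 31.5, and 34.6 and 29.9 FPKM. Every PMN-MDSC library was thus below every M-MDSC library, with the widest gap under the inhibitors. The difference was -1.31 ± 0.05 (log2, SE; limma, adjusted p = 1.55e-09), the most negative of any member.

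Uchl3, which processes the precursors of ubiquitin and NEDD8, ran from 19.6 to 25.8 FPKM in PMN-MDSCs and from 46.9 to 56.7 FPKM in M-MDSCs, a difference of -1.11 ± 0.06 (adjusted p = 1.58e-08). It was the member with the second highest mean in M-MDSCs and stood 13th in PMN-MDSCs. Usp5, which takes apart free ubiquitin chains, ranged from 19.5 to 32.5 FPKM against 33.5 to 50.4 FPKM (-0.72 ± 0.05, adjusted p = 2.18e-07). Uchl5, which sits on the proteasome through Adrm1 and on the INO80 chromatin remodeler through Nfrkb, ranged from 19.8 to 28.4 against 34.4 to 45.6 FPKM (-0.70 ± 0.05, adjusted p = 2.13e-07). None of these ranges overlapped.

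Other genes of the same machinery were read from lists of cofactors, of deubiquitinases outside the 4 families, and of ubiquitin precursors and E1 enzymes. Psmd14, the metalloprotease of the proteasome lid, was lower in PMN-MDSCs at 42.4 to 62.7 FPKM against 86.3 to 103 FPKM in M-MDSCs (-0.90 ± 0.04, adjusted p = 3.6e-09). Adrm1 differed by -0.47 ± 0.05 and Nfrkb by -0.07 ± 0.06, neither past the fold limit. Ubb, a polyubiquitin gene, was higher in PMN-MDSCs (0.67 ± 0.04, adjusted p = 4.39e-08).

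Usp10, which deubiquitinates p53 and binds the stress granule protein G3bp1, was 14.3 and 13.2 FPKM in vehicle PMN-MDSCs, 6.68 and 7.32 under MS-275 and 7.65 and 6.98 under CXD101. In M-MDSCs it was 21.3 and 22.4, 20.2 and 20.7, and 20.6 and 20.3 FPKM, nearly level over the treatments. The difference was -1.14 ± 0.05 (adjusted p = 1.34e-09). G3bp1 itself was also lower in PMN-MDSCs, at 55.6 to 88.9 against 148 to 169.8 FPKM (-1.21 ± 0.05, adjusted p = 1.78e-09). An annotated transcript, Gm20388, overlaps exons of Usp10 on the same strand.

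In the list for DNA repair, cell cycle and p53, of 8 members, Usp10 and Usp1 were lower (22.3% of all genes) and the other 6 were not called. Usp1, which works with Wdr48 to remove ubiquitin from PCNA and FANCD2, ranged from 19.3 to 27.6 FPKM in PMN-MDSCs and from 38.3 to 54.0 FPKM in M-MDSCs (-0.95 ± 0.04, adjusted p = 3.55e-09). Wdr48 was not called (0.04 ± 0.04, adjusted p = 0.417). Likewise Usp7, which stabilizes Mdm2 and p53, was 34.7 to 41.3 FPKM against 34.4 to 38.8 FPKM (0.07 ± 0.05, adjusted p = 0.222), while its partner Gmps was lower (-1.03 ± 0.05, adjusted p = 8.77e-09). The 4 proliferation markers (Mki67, Top2a, Ccnb1 and Cdk1) were all lower in PMN-MDSCs as well, summing to 136 to 160 FPKM there and to 291 to 428 FPKM in M-MDSCs, with none at 0. Their part in the values of Usp1 was not tested, and in sorted bulk samples fewer cycling cells and less RNA per cell cannot be told apart.

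Usp36, a nucleolar deubiquitinase, was lower in PMN-MDSCs at 2.1 to 5.93 FPKM against 6.2 to 7.38 FPKM (-0.81 ± 0.06, adjusted p = 2.39e-07). Its 2 vehicle libraries, at 5.93 and 5.47 FPKM, lay close to the M-MDSC range, and most of the difference came from the treated libraries: it was -0.31 ± 0.11 within vehicle, short of the fold limit, -1.16 ± 0.11 under MS-275 and -0.97 ± 0.11 under CXD101. Otud6b, an OTU member, ranged from 9.09 to 13.8 against 16.2 to 21.6 FPKM (-0.67 ± 0.06). The last lower calls, Usp44 and Uchl1, had overlapping ranges and are described with the inhibitors. Usp44 met the FPKM limit through M-MDSCs, the subset in which it was higher. Within vehicle, Uchl1 differed by 0.03 ± 0.27.

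**Figure D2:**
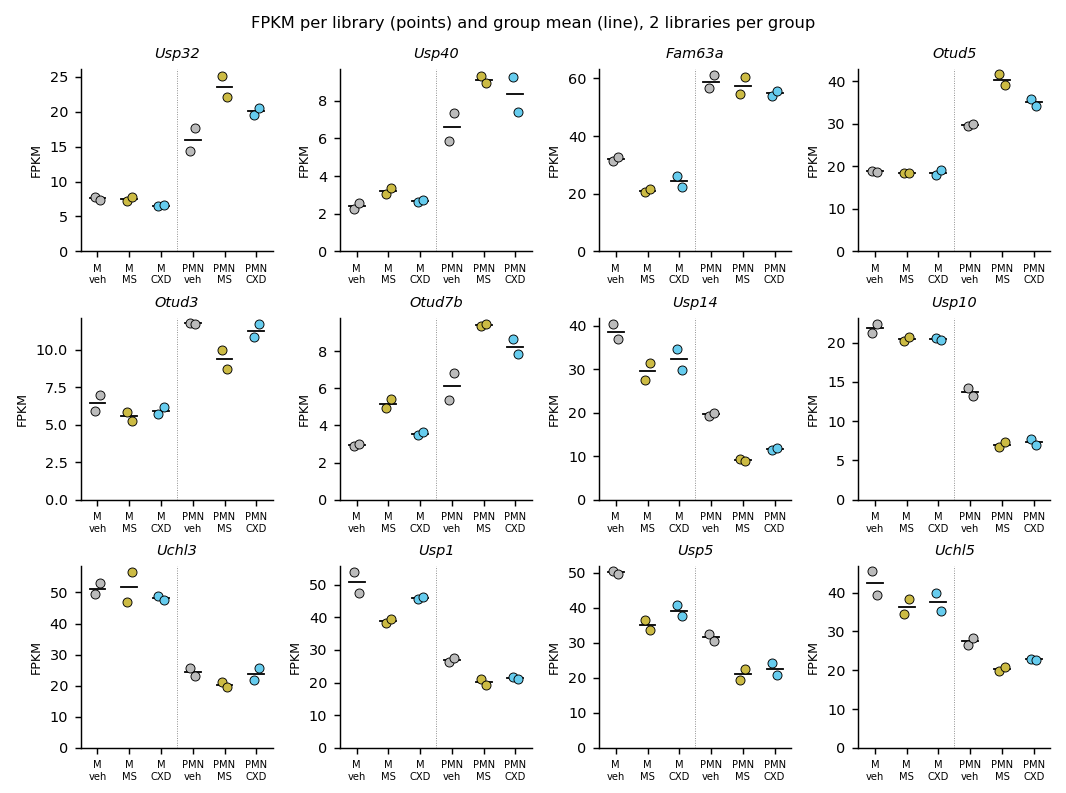
FPKM of 12 members in each library (points, 2 per group, with the group mean as a line); M and PMN mark the subset and veh, MS and CXD the treatment. In the first 6 panels the PMN-MDSC groups lie above the M-MDSC group of the same treatment and in the last 6 below, and Usp14 and Usp10 are lowest in the treated PMN-MDSC libraries.

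Usp32 led the members that were higher in PMN-MDSCs. It encodes a membrane-associated deubiquitinase known for its action on the late endosomal GTPase Rab7. Its level was 14.4 and 17.6 FPKM in the vehicle, 25.2 and 22.1 in the MS-275 and 19.5 and 20.6 in the CXD101 libraries of PMN-MDSCs, and 6.43 to 7.84 FPKM in the 6 M-MDSC libraries. The groups were far apart, with a difference of 1.33 ± 0.06 (adjusted p = 3.33e-09) and a fold of means of 2.76. It was the single called member among the 7 listed for endosome, membrane and mitochondrion, where 44.9% of all genes were called either way. Usp8, an endosomal deubiquitinase that sorts receptors, was 31.1 to 36.0 against 30.2 to 34.2 FPKM (0.05 ± 0.04, adjusted p = 0.305), and Usp30, of the outer mitochondrial membrane, differed by 0.07 ± 0.06.

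Usp40 stood at 5.87 and 7.37 FPKM in the vehicle, 9.32 and 8.92 in the MS-275 and 9.25 and 7.43 in the CXD101 libraries of PMN-MDSCs, and at 2.26 to 3.39 FPKM in M-MDSCs, a difference of 1.26 ± 0.07 (adjusted p = 3.08e-08). Its exons overlap Dgkd on the other strand, and whether fragments were counted by strand is not stated in the sources used here. The same holds for Fam63a (Anxa9 and Prune1), Fam63b (Gm10642), Usp14 (Thoc1), Usp31 (1700069B07Rik), Uchl1 (Uchl1os, listed at 0) and Usp2 (Gm39325 and Gm49380).

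The MINDY family, which trims long chains linked through lysine 48, was higher in PMN-MDSCs in both members (22.5% of all genes). Fam63a stood at 56.6 and 61.1 FPKM in the vehicle, 54.6 and 60.4 in the MS-275 and 54.1 and 55.7 in the CXD101 libraries of PMN-MDSCs, and at 31.5 and 32.8, 20.6 and 21.5, and 26.1 and 22.4 FPKM in those of M-MDSCs. It was level in PMN-MDSCs and lower under both inhibitors in M-MDSCs, and differed between the subsets by 1.14 ± 0.05 (adjusted p = 1.8e-09). Fam63b ranged from 9.17 to 10.9 FPKM against 4.96 to 7.55 FPKM (0.67 ± 0.06, adjusted p = 7.55e-07). It passed the limit under MS-275 (0.87) and CXD101 (0.79) and not within vehicle (0.36).

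Of 8 OTU members, 3 were higher and 1 was lower (22.5% and 22.3% of all genes). Otud5, which removes ubiquitin from Traf3 and restrains type I interferon, stood at 29.4 and 29.9 FPKM in vehicle PMN-MDSCs, 41.6 and 39.1 under MS-275 and 35.9 and 34.2 under CXD101. The 6 M-MDSC libraries ran from 17.8 to 19.2 FPKM, so no library overlapped, and the difference was 0.87 ± 0.04 (adjusted p = 2.44e-09). Otud3, another OTU deubiquitinase, ranged from 8.70 to 11.8 against 5.27 to 6.97 FPKM (0.76 ± 0.06, adjusted p = 3.84e-07). Otud7b, which cuts chains linked through lysine 11 and acts on Traf3 in noncanonical NF-κB signalling, ranged from 5.38 to 9.49 against 2.88 to 5.44 FPKM (0.87 ± 0.07, adjusted p = 2.22e-07). Its overlap came from 1 library, the second MS-275 library of M-MDSCs, and within each treatment the PMN-MDSC libraries were above. Usp35, the remaining higher call (0.95 ± 0.07), also overlapped between the subsets and is described with the inhibitors. It was not called within vehicle (0.39 ± 0.12), at 1.10 and 1.13 FPKM in PMN-MDSCs against 0.655 and 0.578 in M-MDSCs. The fold of means there was 1.81, at levels where the pseudocount understates differences.

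The 13 members listed for innate and NF-κB signalling held 3 higher (Otud5, Otud7b and Usp21), 1 lower (Usp10) and 9 not called. Of all genes, 22.5% were higher and 22.3% lower. The list's median difference was 0.05. Among the 9, Otud1 was 1.06 to 1.65 FPKM in PMN-MDSCs against 0.427 to 0.842 in M-MDSCs (0.51 ± 0.09, adjusted p = 0.000387), without overlap. Its fold of means was 2.06, at levels where the pseudocount understates differences. Otud1 met the limit of 1 FPKM through PMN-MDSCs. Several of the 9 stood at high levels in both subsets. Otub1 was 46.0 to 65.4 FPKM in PMN-MDSCs and 40.2 to 61.3 FPKM in M-MDSCs (0.05 ± 0.04, adjusted p = 0.249). Usp4, which acts on Traf proteins and TGF-β receptor signalling, was 42.5 to 49.2 against 34.0 to 41.0 FPKM (0.33 ± 0.04, adjusted p = 2.78e-05), a difference in one direction in every library that stayed under the fold limit. Outside the 4 families, the NF-κB inhibitors Tnfaip3 (A20; 16.6 to 23.1 against 4.63 to 7.85 FPKM, 1.59 ± 0.05) and Cyld (11.2 to 15.3 against 7.16 to 8.34 FPKM, 0.64 ± 0.05) were higher in PMN-MDSCs. Of the 19 genes tested in the list of other deubiquitinases they were the 2 called higher (22.5% of all genes). Psmd14, Cops5 (-0.75) and Brcc3 (-0.74), all metalloproteases, were the 3 called lower (22.3% of all genes). Cops5, of the COP9 signalosome, was counted here as listed.

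Among the 8 members tested for histone deubiquitination, 2 were higher (Usp21 and Usp22) and 2 lower (Usp36 and Usp44). The shares of all genes were 22.5% and 22.3%, and the list's median difference was -0.01. Usp22, the deubiquitinase of the SAGA coactivator that acts on histone H2B, was 23.7 and 25.4 FPKM in vehicle PMN-MDSCs, 30.1 and 30.7 under MS-275 and 30 and 30 under CXD101, against 16.6 to 19.9 FPKM in M-MDSCs. The difference of 0.59 ± 0.05 (adjusted p = 1.29e-06) lay at the fold limit and fell under it when any of 5 single libraries was left out (0.55 at the lowest). Of its module partners, Atxn7 was higher (0.73 ± 0.07), Atxn7l3 differed by 0.45 ± 0.05 and Eny2 was lower (-0.79 ± 0.08). Usp21 was 14.1 to 19.4 against 9.48 to 12 FPKM (0.60 ± 0.05), likewise at the limit. It fell under the limit without any of 3 single libraries (0.57 at the lowest) and was not called within vehicle (0.55 ± 0.08). Usp3, which acts on H2A, was 11.3 to 14.6 against 8.04 to 8.66 FPKM (0.55 ± 0.04, adjusted p = 3.14e-07), without overlap and short of the fold limit, and Usp16, another H2A deubiquitinase, differed by -0.10 ± 0.05.

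**Figure D3:**
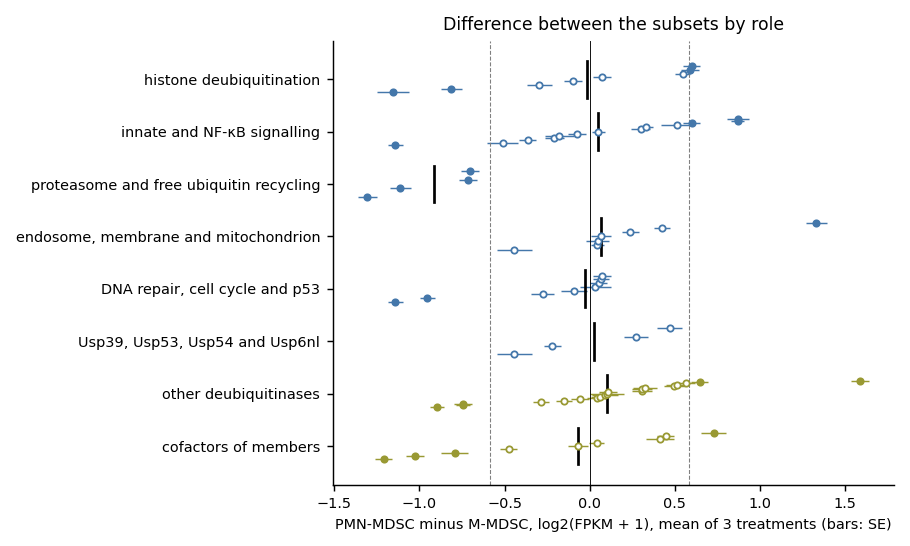
Difference between PMN-MDSCs and M-MDSCs by role, in log2(FPKM + 1) as the mean of 3 treatments, with bars for the standard error; blue points are members, olive points are other genes of the ubiquitin system, filled points were called, dashed lines mark a fold change of 1.5 and black bars the list median. The 4 genes for the proteasome and free ubiquitin all lie past the limit on the lower side, whereas the other lists straddle 0.

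Paralogs often differed in level or in subset difference. Otub2 was 0.818 to 1.85 FPKM in PMN-MDSCs, far below Otub1, and was not called between the subsets (-0.18 ± 0.09, adjusted p = 0.0737). Of Usp4, Usp15 and Usp11, Usp15 was 8.26 to 10.1 FPKM in PMN-MDSCs (-0.07 ± 0.05 against M-MDSCs) and Usp11 was 0.380 to 0.722 FPKM (-0.51 ± 0.09). Usp12 and Usp46, which share the partners Wdr48 and Wdr20, differed between the subsets by -0.21 ± 0.04 and 0.09 ± 0.08. Usp20 (0.05 ± 0.07) and Usp33 (0.24 ± 0.05) were not called, nor were Usp25 (-0.21 ± 0.06) and Usp28 (-0.09 ± 0.08). The same held for Usp16 and Usp45 (-0.11 ± 0.06) and for the very large Usp24 (-0.21 ± 0.06) and Usp34 (0.29 ± 0.07). Usp22 had both its close relatives, Usp27x and Usp51, under the limit, Usp5 had Usp13 at 0, and Usp9x (10.6 to 14.1 against 10.8 to 16.5 FPKM, -0.04 ± 0.07) had its Y-linked copy Usp9y at 0 in these female mice.

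Read within single treatments, 6 members were higher and 7 lower in vehicle PMN-MDSCs (17.2% and 16.8% of all genes), 10 higher and 13 lower under MS-275 (25.2% and 25.2%), and 11 higher and 11 lower under CXD101 (24.4% and 24.5%). These 3 comparisons use separate libraries. Usp32, Usp40, Fam63a, Otud3, Otud5 and Otud7b were higher in all 3, and Usp14, Uchl3, Uchl5, Usp5, Usp1, Usp10 and Usp44 lower in all 3. Usp44 met the FPKM limit through M-MDSCs, so its lower calls are not independent of that filter. In the vehicle libraries it rested on about 3 to 5 reads in PMN-MDSCs and about 19 to 24 in M-MDSCs. The 6 higher and 7 lower members compare with 13.7% and 13.3% of all genes, and no member was called in opposite directions (0.274% of all genes). Usp32 had a difference of 0.98 ± 0.10 within vehicle, 1.53 ± 0.10 under MS-275 and 1.49 ± 0.10 under CXD101, and Usp14 one of -0.94 ± 0.09, -1.58 ± 0.09 and -1.39 ± 0.09.

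The stretches in front of the genes were read to show what surrounds the start of these members. RefSeq windows (GRCm38.p6, 250 bases before to 50 after the start) were found for 43 of 55 members, 48 windows in all. The last 30 bases of 40 of the 48 windows lay near the start of an annotated transcript of a member. The 150 bases before the RefSeq start are printed for the 2 members with the largest positive difference. Also printed are 2 that were lower (Usp10 and Uchl3), and Usp35 and Usp36, which the inhibitors moved in opposite directions. In the GENCODE annotation the Usp32 gene starts at 85140161 on the minus strand, so its printed stretch lies within that gene. Capitals mark the GC box GGGCGG and the ETS motif CCGGAAG on either strand, which do not overlap in these stretches.
Usp32, chr11:85139956-85140105, minus strand: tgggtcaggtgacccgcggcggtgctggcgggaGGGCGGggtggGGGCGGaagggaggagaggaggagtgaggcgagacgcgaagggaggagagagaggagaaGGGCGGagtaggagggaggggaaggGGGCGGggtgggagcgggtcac
Usp40, chr1:88008552-88008701, minus strand: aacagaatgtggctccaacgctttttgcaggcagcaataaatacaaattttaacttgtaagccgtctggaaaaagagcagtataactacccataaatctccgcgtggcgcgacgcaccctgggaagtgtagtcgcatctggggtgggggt
Uchl3, chr14:101653817-101653966, plus strand: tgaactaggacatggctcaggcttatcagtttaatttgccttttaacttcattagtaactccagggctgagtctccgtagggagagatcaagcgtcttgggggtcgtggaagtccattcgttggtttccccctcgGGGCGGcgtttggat
Usp10, chr8:119910210-119910359, plus strand: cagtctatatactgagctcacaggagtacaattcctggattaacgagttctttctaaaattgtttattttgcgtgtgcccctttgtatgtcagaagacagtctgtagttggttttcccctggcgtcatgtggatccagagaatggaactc
Usp35, chr7:97332110-97332259, minus strand: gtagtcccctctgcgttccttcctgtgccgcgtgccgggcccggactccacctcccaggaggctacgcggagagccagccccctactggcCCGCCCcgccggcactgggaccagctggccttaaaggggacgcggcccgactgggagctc
Usp36, chr11:118290245-118290394, minus strand: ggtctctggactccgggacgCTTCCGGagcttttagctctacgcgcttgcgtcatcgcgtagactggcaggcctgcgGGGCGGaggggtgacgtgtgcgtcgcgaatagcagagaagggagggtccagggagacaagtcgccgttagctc
The Usp32 stretch held 4 GC boxes and 72.7% G and C, whereas Usp40 held none and 48.7%. Uchl3, Usp35 and Usp36 held 1 GC box each, Usp36 also an ETS motif, and Usp10 held no match. Over whole windows, a GC box stood in 70.8% of member windows and in 35.7% of all 32851 windows, an ETS motif in 20.8% and 8.86%, and the median G and C content was 64.7% against 52.7%. By subset difference, a GC box stood in 8 of 10 windows of members higher in PMN-MDSCs, 3 of 5 of those lower and 23 of 33 of the rest. AP-1 (TGACTCA) stood in 6.25% of member windows and 5.20% of all, the E box CACGTG in 14.6% and 7.15%, and GAGGAAG, as bound by PU.1, in 4.17% and 13.6%. A match describes letters, not a bound factor.

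The second question was how the HDAC inhibitors moved these transcripts in PMN-MDSCs. MS-275 raised 2 of 53 members tested, Usp35 and Usp53, where 14.6% of all 11184 genes rose, and lowered 8 (Usp14, Usp36, Uchl1, Usp10, Usp31, Usp24, Usp2 and Usp12), where 14.2% of all genes fell. CXD101 raised 1, Usp35 (11.9% of all genes), and lowered 5 (Uchl1, Usp10, Usp14, Usp36 and Usp24; 9.54% of all genes). Lower calls thus came at about the rate of all genes, and higher calls below it. By the adjusted p alone, 11 members were higher and 16 lower under MS-275 (25.3% and 28.5% of all genes) and 7 and 13 under CXD101 (21.4% and 23.9%). Both inhibitor comparisons share the vehicle libraries. With one FPKM sum for every library, the median of all genes moved to -0.34 under each inhibitor, and the members split into 1 higher and 17 lower under MS-275 (all genes 943 and 3497) and 1 and 15 under CXD101 (739 and 3112).

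Usp35 was the member raised by both inhibitors. It stood at 1.10 and 1.13 FPKM in vehicle PMN-MDSCs, 3.74 and 4.23 under MS-275 and 3.43 and 3.33 under CXD101. The treated libraries lay well above the vehicle libraries, which agreed closely. The rise was 1.23 ± 0.13 for MS-275 (adjusted p = 0.000198) and 1.05 ± 0.13 for CXD101 (adjusted p = 0.000631), a fold of means of 3.57 and 3.02. Usp53, known for its place at tight junctions, rose from 1.36 and 1.46 to 2.74 and 2.93 FPKM under MS-275 (0.67 ± 0.13, adjusted p = 0.00392). Its values under CXD101, 2.51 and 2.49 FPKM, gave 0.54 ± 0.13, under the fold limit.

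Usp14 fell in PMN-MDSCs by 1.02 ± 0.09 under MS-275 (adjusted p = 7.64e-05) and by 0.71 ± 0.09 under CXD101 (adjusted p = 0.000629), from the levels given above. The other 3 proteasome and recycling members tested were not called under either inhibitor. Under MS-275 Usp5 differed by -0.57 ± 0.11, Uchl5 by -0.42 ± 0.08 and Uchl3 by -0.25 ± 0.11, and under CXD101 they differed by -0.47 ± 0.11, -0.25 ± 0.08 and -0.04 ± 0.11. The list's median was -0.49 under MS-275 and -0.36 under CXD101, where that of all genes was -0.03 for each inhibitor. The summed level of the 5 genes went from 102 to 104 FPKM in vehicle PMN-MDSCs to 69.8 to 71.8 under MS-275 and 80.3 to 81.1 under CXD101. Psmd14 differed by -0.52 ± 0.07 under MS-275 and -0.43 ± 0.07 under CXD101.

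Usp10 and Usp36 fell under both inhibitors. The change of Usp10 was -0.88 ± 0.11 for MS-275 (adjusted p = 0.000331) and -0.83 ± 0.11 for CXD101 (adjusted p = 0.000664). Usp36 went from 5.93 and 5.47 FPKM to 2.1 and 2.59 under MS-275 and 3.37 and 2.94 under CXD101, a change of -1.0 ± 0.14 (adjusted p = 0.000643) and -0.69 ± 0.14 (adjusted p = 0.00511). Both treated groups lay below both vehicle libraries.

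Usp24 went from 13.1 and 14.2 FPKM in vehicle to 8.07 and 7.14 under MS-275 (-0.77 ± 0.10, adjusted p = 0.000626) and 8.72 and 8.41 under CXD101 (-0.61 ± 0.10, adjusted p = 0.00254). The CXD101 call was lost without the second vehicle library (-0.56). Its large relative Usp34 differed by 0.06 ± 0.11 and -0.02 ± 0.11. Usp31 stood at 3.79 and 4.61 FPKM in vehicle, 2.04 and 1.72 under MS-275 (-0.85 ± 0.15, adjusted p = 0.00191) and 2.42 and 2.61 under CXD101 (-0.56 ± 0.15, under the fold limit). Usp12 went from 17.0 and 16.4 to 10.4 and 10.1 FPKM under MS-275 (-0.65 ± 0.09, adjusted p = 0.000537), and its paralog Usp46 differed by -0.14 ± 0.14. Usp2, which acts in the circadian clock, went from 2.95 and 2.52 to 1.43 and 1.11 FPKM (-0.72 ± 0.16, adjusted p = 0.00593).

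Uchl1, the UCH enzyme abundant in neurons, was called lower under both inhibitors on few reads. Its 2 vehicle libraries of PMN-MDSCs held 2.38 and 1.59 FPKM, the MS-275 libraries 0.138 and 1.18 and the CXD101 libraries 0.741 and 0.272, where the lowest value corresponds to about 1 read and the highest to about 23. The libraries of each group were far apart. The change was -0.91 ± 0.32 for MS-275 (adjusted p = 0.0449) and -0.99 ± 0.32 for CXD101 (adjusted p = 0.0383), and the call was lost on leaving out 5 of the 6 PMN-MDSC libraries one at a time for MS-275 (-0.44 to -1.38) and 4 of the 6 for CXD101 (-0.77 to -1.22).

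**Figure D4:**
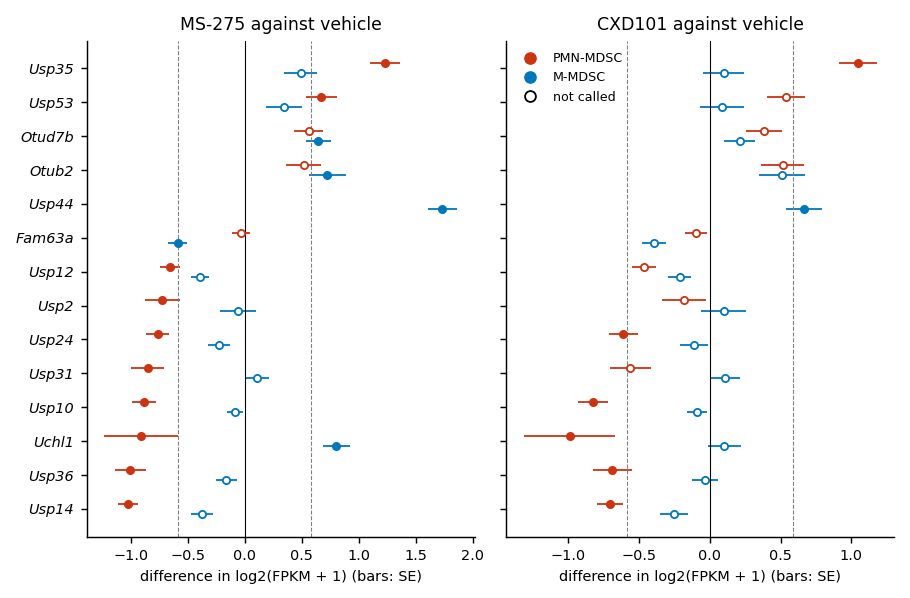
Change under MS-275 (left) and CXD101 (right) against vehicle, in log2(FPKM + 1) with bars for the standard error, for the members called in any of the 4 inhibitor comparisons; red points are PMN-MDSCs, blue points M-MDSCs, filled points were called and dashed lines mark a fold change of 1.5. Usp35 lies to the right in PMN-MDSCs, Usp14, Usp36, Usp10 and Usp24 to the left, while Usp44 is shown for M-MDSCs alone because it was not tested in PMN-MDSCs.

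In the PMN-MDSC libraries the share of S100a8 and S100a9 moved with the treatment, from 10.2 and 13.7% of the FPKM sum in vehicle to 27.3 to 30.9% in the treated libraries. The list of 10 neutrophil markers summed to 71571 and 97549 FPKM in vehicle and to 255532 to 296062 in the treated libraries. Most of each sum was S100a8 and S100a9. Mmp9 went the other way, from 978 and 1144 FPKM in vehicle to 668 to 724 in the treated libraries. It was called lower under MS-275. Of the 10 markers, 8 rose under each inhibitor. Among them Ngp went from 1494 and 1625 to 14306 to 19538 FPKM, Ltf from 693 and 760.0 to 4077 to 4981 and Camp from 295 and 278 to 1821 to 2380. The part of these shifts in the members' values was not tested as such. With all libraries scaled to one FPKM sum without S100a8 and S100a9, each of the 8 falls under MS-275 and of the 5 under CXD101 was still past the limits. The monocyte marker list also rose, from 669 to 747 FPKM in vehicle to 1547 to 1796 in treated PMN-MDSCs, almost all of it Ly6c2. Ly6c2 went from 511 and 455 to 1418 to 1677 FPKM, and stood at 1360 and 1306 FPKM in vehicle M-MDSCs. Ccr2 stood at 40.7 and 35.7 in vehicle PMN-MDSCs, 30 and 29.4 under MS-275 and 27.5 and 28.0 under CXD101. Of the 7 monocyte markers tested, 1 was called higher and 3 lower under each inhibitor. The macrophage list fell from 181 to 191 FPKM to 111 to 143 FPKM. Of its 6 genes, 4 were called lower under each inhibitor. Apoe was called higher under MS-275, from 13.8 and 16.4 FPKM in vehicle to 45.2 and 51.1.

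MS-275 and CXD101 were given at one dose and could be compared directly. None of 53 members differed between them in PMN-MDSCs by limma (0.465% of all genes higher and 0.34% lower under MS-275), and 1 higher and 4 lower members had an unadjusted p under 0.05 (7.3% and 8.06% of all genes). The smallest adjusted p was that of Usp14 (0.166), which was lower under MS-275 by 0.32 with a 95% interval of -0.52 to -0.11. For Usp2 the difference was -0.54 (-0.90 to -0.17). The interval lay within a fold change of 1.5 on both sides for 47 of the 53 members, Usp35 among them (0.19, -0.12 to 0.49), and reached past it for Usp2, Usp46, Usp36, Usp31, Usp49 and Uchl1. In the model of all 12 libraries, which also tests Usp44, that gene was the 1 member called, higher under MS-275. It entered that model through its M-MDSC level. In PMN-MDSCs it held 0.994 and 1.37 FPKM under MS-275 and 0.531 and 0.165 under CXD101, about 3 to 25 reads.

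The last question was whether the response differed between the subsets, tested as an interaction in the model of all 12 libraries. In M-MDSCs, MS-275 raised 4 of 54 members (Usp44, Uchl1, Otub2 and Otud7b; 10.1% of all 11078 genes) and lowered 1 (Fam63a; 7.32%), and CXD101 raised 1 (Usp44; 5.14%) and lowered none (3% of all genes; 9 members and 20% of all genes lower at an unadjusted p under 0.05). By the adjusted p alone, 7 members were higher and 12 lower under MS-275 (19.2% and 27.3%) in M-MDSCs and 1 and 5 under CXD101 (10.9% and 12.2%). Of the 52 members tested in both subsets, none was called in the same direction in both, where 9.8% of all genes were under MS-275 and 4.73% under CXD101. Usp44 was not among the 52. The pseudocount understates changes of low members. As a fold of means under MS-275, Usp35 was at 3.57 in PMN-MDSCs and 2.06 in M-MDSCs, Otub2 at 1.92 and 2.29, and Usp53 at 2.02 and 1.52. Uchl1 was called in opposite directions under MS-275. Changes had the same sign in both subsets for 34 of the 52 under MS-275 and 37 under CXD101. For MS-275 the interaction was positive for 1 of 55 members (8.65% of all genes) and negative for 7 (9.48%). For CXD101 it was positive for 1 (7.31%) and negative for 3 (6.59%). By the adjusted p alone, the interaction was positive for 7 and negative for 9 members under MS-275 (15.9% and 15.1%), and for 3 and 5 under CXD101 (12.2% and 12% of all genes). With one FPKM sum for every library the members split into 0 positive and 16 negative for MS-275 (all genes 381 and 2971) and 1 and 9 for CXD101 (373 and 2453). With the sum taken without S100a8 and S100a9, the MS-275 split was 1 and 9 (727 and 1470).

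Usp35, Usp10, Usp31 and Usp36 differed in response under both inhibitors. Usp35 in M-MDSCs was 0.655 and 0.578 FPKM in vehicle, 1.28 and 1.27 under MS-275 and 0.668 and 0.789 under CXD101, so that MS-275 brought it above vehicle in both subsets and CXD101 mainly in PMN-MDSCs. The response was larger in PMN-MDSCs by 0.74 ± 0.16 for MS-275 (adjusted p = 0.00655) and 0.95 ± 0.16 for CXD101 (adjusted p = 0.00236). With a pseudocount of 0.1 in place of 1 the MS-275 interaction was not called (0.81, adjusted p = 0.0513).

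Usp10 was level in M-MDSCs, with a change of -0.09 ± 0.07 under MS-275 and -0.09 ± 0.07 under CXD101, and the interaction was -0.79 ± 0.11 (adjusted p = 0.000579) and -0.74 ± 0.11 (adjusted p = 0.00126). Usp36 in M-MDSCs was 7.25 and 7.38 FPKM in vehicle, 6.2 and 6.69 under MS-275 and 7.28 and 6.98 under CXD101, with interactions of -0.84 ± 0.15 (adjusted p = 0.00212) and -0.66 ± 0.15 (adjusted p = 0.0102). Usp31 was 3.90 and 4.01, 4.06 and 4.63, and 4.30 and 4.36 FPKM in M-MDSCs, with interactions of -0.96 ± 0.16 (adjusted p = 0.00177) and -0.67 ± 0.16 (adjusted p = 0.0146). In these 3 genes the vehicle libraries of the subsets lay close together or differed less than the treated ones. The CXD101 interactions of Usp31 and Usp36 were each lost on leaving out 1 library, the second vehicle (-0.56) and the second CXD101 library (-0.58) of PMN-MDSCs.

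Usp14 and Usp2 were called for MS-275 alone, with interactions of -0.64 ± 0.13 (adjusted p = 0.00439) and -0.66 ± 0.22 (adjusted p = 0.0424). The call for Usp14 was lost without the second vehicle or the second MS-275 library of M-MDSCs (-0.55 at the weakest), and that for Usp2 on leaving out any of 7 of the 12 libraries. The corresponding CXD101 interactions were -0.45 ± 0.13 and -0.28 ± 0.22, and the difference between the inhibitors was not tested here.

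Uchl1 moved in opposite directions in the subsets. In M-MDSCs it stood at 1.81 and 2.0 FPKM in vehicle, 4.10 and 4.03 under MS-275 and 2.16 and 2.07 under CXD101, a rise of 0.80 ± 0.12 for MS-275 (adjusted p = 0.000848). The rise rested on about 20 to 52 reads a library. The interaction was -1.71 ± 0.38 (adjusted p = 0.00653) and remained called in each of the 12 fits that left out 1 library. For CXD101 the interaction was -1.09 ± 0.38 with an adjusted p of 0.0573.

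Usp44, which acts on histone H2B and on the mitotic checkpoint, stood at 0.817 and 1.06 FPKM in vehicle M-MDSCs, 5.63 and 5.28 under MS-275 and 1.98 and 2.18 under CXD101. In PMN-MDSCs the same groups held 0.262 and 0.149, 0.994 and 1.37, and 0.531 and 0.165 FPKM, which is about 3 to 25 reads. The rise in M-MDSCs was 1.74 ± 0.13 under MS-275 (adjusted p = 2.94e-05) and 0.67 ± 0.13 under CXD101 (adjusted p = 0.00802). As a fold of means, the MS-275 rise was 5.80 among M-MDSC and 5.75 among PMN-MDSC libraries. The interaction of -0.88 ± 0.23 (adjusted p = 0.0144) therefore depended on the pseudocount, and with 0.1 it was -0.35 (adjusted p = 0.682). It was also lost without any of 3 single libraries, the first vehicle or first MS-275 library of M-MDSCs or the first MS-275 library of PMN-MDSCs (-0.76 to -1.01 over all 12). Usp44 entered the tests through its M-MDSC level.

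**Figure D5:**
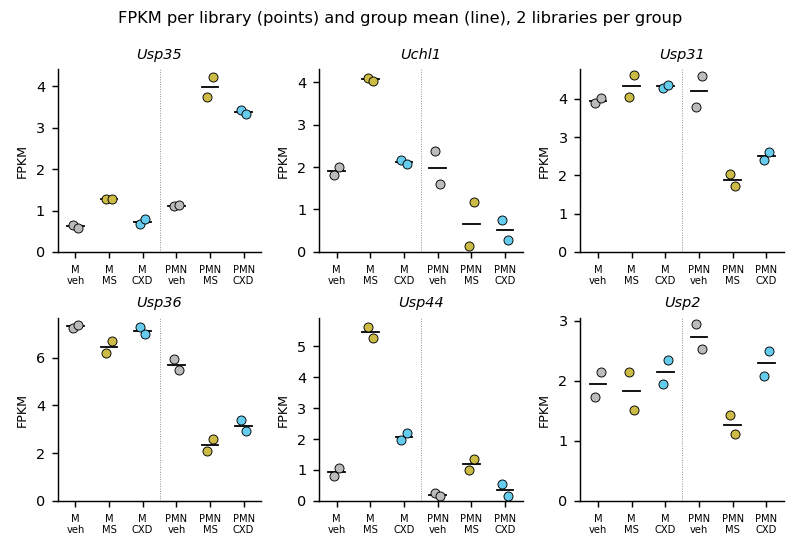
FPKM of 6 members called in an interaction of subset and inhibitor, in each library (points, 2 per group, with the group mean as a line); M and PMN mark the subset and veh, MS and CXD the treatment. Usp35 rises most in PMN-MDSCs, Usp31 and Usp36 fall in PMN-MDSCs and stay near the vehicle level in M-MDSCs, and Uchl1 and Usp44 are highest in M-MDSCs under MS-275.

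In M-MDSCs, Otub2 went from 1.02 and 1.03 to 2.28 and 2.42 FPKM under MS-275 (0.73 ± 0.16, adjusted p = 0.00719) and Otud7b from 2.88 and 3.0 to 4.91 and 5.44 FPKM (0.65 ± 0.11, adjusted p = 0.00184). Neither interaction was called. In PMN-MDSCs Otub2 changed by 0.52 ± 0.15 and Otud7b by 0.56 ± 0.13. The interactions were -0.21 (95% interval -0.67 to 0.25) and -0.09 (-0.44 to 0.27). Fam63a fell in M-MDSCs by 0.59 ± 0.08 (adjusted p = 0.000814), at the fold limit, and its interaction of 0.55 ± 0.12 (adjusted p = 0.00518) stayed under that limit. Beside these values, the summed level of the 4 eosinophil markers found rose in M-MDSCs from 7.90 to 13.6 FPKM in vehicle to 132 to 152 under MS-275 and 106 to 117 under CXD101, mostly Prg2 and Epx, with Ccr3 and Il5ra at or near 0. The 6 hepatocyte and tumor markers summed to 1.69 to 1.9 FPKM in vehicle M-MDSCs, 7.48 to 7.83 under MS-275 and 2.23 to 2.92 under CXD101. Of these, Krt18 went from 0.0795 and 0 to 5.54 and 5.73 FPKM under MS-275, with Ttr and Krt8 at 0 and Alb at or near 0 in every library. The part of either list in the M-MDSC responses was not tested.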

How the data were processed

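Gene expression was measured by RNA-seq in 12 libraries, 2 for each combination of subset and treatment as given by the labels. The authors deposited 1 table of FPKM values per library, for 24346 gene symbols, without counts. Libraries were poly(A)-selected and stranded, and the submitters' processing notes name TopHat2 2.1.1, Bowtie2 2.2.8, Cuffdiff 2.2.1 and SAMtools 0.1.18, with mm10 as the build. Where FPKM is a share of each library, a few abundant transcripts can lower all others. The deposited FPKM sums were not equal and ran from 564078 to 860841. The median difference of all genes between the subsets was 0.00 as deposited and -0.003 with median-of-ratios scaling. No counts were at hand, so reads per gene and depth were only approximated, without intervals.

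Values were analysed as log2(FPKM + 1) with limma 3.58.1 (R 4.3.3; eBayes with an intensity trend; two-sided; Benjamini-Hochberg over all genes tested). The pseudocount understates changes of low genes. Genes with at least 1 FPKM in at least 2 libraries of a model entered it: 11662 for all 12 libraries (subset differences and interactions), 11184 within PMN-MDSCs and 11078 within M-MDSCs. The adjusted p limit of 0.05 and the fold limit of 1.5 follow the study's methods. The scripts were checked on simulated data. Correlation between the 2 libraries of a group was 0.988 to 0.991 over all genes.

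The members and the gene lists were chosen with earlier results of these data known. Named in full were called members without overlap between the subsets (up to 15 each way), members called for an inhibitor in PMN-MDSCs (up to 10 each way) or in an interaction (up to 8 each way), the 6 highest of each subset, paralog groups and Usp44. Other ubiquitin genes came from lists. Some genes of these lists are not reported here. Otud1, Usp3, Usp8, Usp30 and Usp49, beyond that rule, were picked after their values were seen. Alternatives changed the pseudocount, the filter, the scaling, the trend, the model, the limits, the replicate block and the libraries included. Promoter windows came from RefSeq (GRCm38.p6). Python 3.11.15, numpy 2.4.6, pandas 2.3.3 and matplotlib 3.10.9 were used for tables and plots.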

Additional observations from a re-analysis of the deposited data

Results flagged for a closer look

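The response of 8 of 55 members to MS-275 and of 4 to CXD101 differed between PMN-MDSCs and M-MDSCs by the interaction term of the limma model. The values are the response in PMN-MDSCs minus that in M-MDSCs, in log2(FPKM + 1). For MS-275 they were Usp35 0.74 (adjusted p = 0.00655), Usp14 -0.64 (adjusted p = 0.00439), Usp2 -0.66 (adjusted p = 0.0424), Usp10 -0.79 (adjusted p = 0.000579), Usp36 -0.84 (adjusted p = 0.00212), Usp44 -0.88 (adjusted p = 0.0144), Usp31 -0.96 (adjusted p = 0.00177) and Uchl1 -1.71 (adjusted p = 0.00653). For CXD101 they were Usp35 0.95 (adjusted p = 0.00236), Usp36 -0.66 (adjusted p = 0.0102), Usp31 -0.67 (adjusted p = 0.0146) and Usp10 -0.74 (adjusted p = 0.00126). Both interactions share the vehicle libraries. Usp35 was the 1 member called with a positive value, under either inhibitor. Uchl1 and Usp44 rested on few reads in PMN-MDSCs, and the Usp44 value depended on the pseudocount. No group had enough libraries to look for 1 that stood apart.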

How the results depend on the processing

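No call of a named member changed sign under any alternative run. Counts are of members called higher and then lower (for interactions, positive and then negative), beside those of the report in parentheses, and causes were not tested unless an alternative itself leaves fewer genes. With a fold limit of 2, 3 and 4 were called for the subset difference (10 and 10), 1 and 1 within vehicle (6 and 7), 1 and 2 for MS-275 in PMN-MDSCs (2 and 8), 0 lower for CXD101 there (5), 1 and 0 for MS-275 in M-MDSCs (4 and 1), 0 higher for CXD101 there (1), and 0 and 1 (1 and 7) and 0 and 0 (1 and 3) for the MS-275 and CXD101 interactions. By the adjusted p alone the counts were 20 and 20, 14 and 11, 11 and 16, 7 and 13 (CXD101 in PMN-MDSCs, 1 and 5), 7 and 12, 5 lower, 7 positive, and 3 and 5. Scaling to one FPKM sum, chosen after seeing the data, gave 4 and 20 for the subset difference, 1 and 17 for MS-275 and 15 lower for CXD101 in PMN-MDSCs, 0 lower for MS-275 in M-MDSCs (also without S100a8 and S100a9, 0), 0 and 16 for the MS-275 and 9 negative for the CXD101 interaction. Within vehicle alone 6 members were higher in PMN-MDSCs. A pseudocount of 0.1 gave 5 and 3 higher for MS-275 and CXD101 in PMN-MDSCs, 2 lower for MS-275 in M-MDSCs and 0 positive interactions for MS-275. A filter at 5 FPKM, which tests fewer genes, gave 0 and 5 for MS-275 and 0 higher for CXD101 in PMN-MDSCs, 1 higher for MS-275 in M-MDSCs, and 0 and 4 and 0 positive for the interactions. Quantile normalization gave 2 higher for MS-275 and 0 for CXD101 in M-MDSCs and 3 positive MS-275 interactions, median-of-ratios scaling 0 lower for MS-275 in M-MDSCs, and 1 model of all 12 libraries 1 member higher under MS-275 than CXD101 (0). That member was Usp44, which met the filter through M-MDSCs.

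Leaving out 1 library at a time, with a lone library taken to vary like the other groups, gave 2 to 4 higher for MS-275 in PMN-MDSCs (4 without the second vehicle library), 3 to 5 lower for CXD101 (3 without that same library), 0 to 2 lower for MS-275 in M-MDSCs (0 without the second vehicle and 2 without the second MS-275 library) and 0 to 2 higher for CXD101 there (0 without the first vehicle and 2 without the first CXD101 library). It gave 1 to 3 positive MS-275 interactions (3 without the second vehicle or second MS-275 library of PMN-MDSCs) and 1 to 2 for CXD101 (2 without the first vehicle or first CXD101 library of M-MDSCs or the second vehicle library of PMN-MDSCs). Depth limits Uchl1 and Usp44 in PMN-MDSCs most.

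The labels do not say whether same-numbered libraries are paired. Deviations of same-numbered libraries correlated between groups at r of -0.13 to 0.18 over 15 pairs of groups, above 0.1 in 1. Between the subsets of 1 treatment, r was -0.10 for vehicle, -0.01 for MS-275 and -0.13 for CXD101. The block is 1 offset for the number over all groups and does not model pairing within a treatment. Such pairing was not tested. With the number as a block, 10 and 10 members were called for the subset difference, 2 and 7 for MS-275 and 1 and 4 for CXD101 in PMN-MDSCs, and 1 and 6 and 1 and 3 for the interactions. Of the named members, Uchl1 in PMN-MDSCs under MS-275 (-0.91) and CXD101 (-0.99) and the MS-275 interaction of Usp2 (-0.66) were no longer called, and the block changed no other call.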

Other observations

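Among the deubiquitinases outside the 4 families, Tnfaip3 (A20, an inhibitor of NF-κB signalling) differed in its response between the subsets. In PMN-MDSCs it stood at 16.6 and 18.9 FPKM in vehicle, 22.8 and 23.1 under MS-275 and 18.7 and 19.8 under CXD101. In M-MDSCs the same groups held 7.76 and 7.85, 5.37 and 5.28, and 4.63 and 5.44 FPKM, so every treated M-MDSC library lay below vehicle. The interaction was 0.83 ± 0.13 for MS-275 (limma, adjusted p = 0.000948) and 0.66 ± 0.13 for CXD101 (adjusted p = 0.00464), whereas none of the 4 changes within a subset passed the fold limit. Mpnd, of the JAMM metalloprotease family, had an interaction of 0.67 ± 0.13 for CXD101 (adjusted p = 0.00462).

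Within PMN-MDSCs, Stambpl1, a metalloprotease that cuts chains linked through lysine 63, went from 16.0 and 13.9 to 23.6 and 25.5 FPKM under MS-275 (0.69 ± 0.10, adjusted p = 0.000898). Cops5, the catalytic subunit of the COP9 signalosome, went from 42.8 and 40.7 to 28.4 and 25.5 FPKM (-0.61 ± 0.08, adjusted p = 0.000668). Brcc3 went from 18.4 and 20.4 to 11.1 and 12.2 FPKM under CXD101 (-0.69 ± 0.09, adjusted p = 0.000931).

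Across the 52 members tested in both subsets, the changes in PMN-MDSCs and in M-MDSCs had the same sign for 34 under MS-275 and 37 under CXD101. Pearson's r across these genes was 0.42 and 0.37 (Spearman's rho 0.53 and 0.41), and r across all 10648 genes tested in both was 0.64 and 0.55. Genes are not independent replicates, and all genes of a subset share its libraries. The median size of a member's change was 0.32 in PMN-MDSCs and 0.17 in M-MDSCs under MS-275, and 0.23 and 0.11 under CXD101. For all genes it was 0.34 and 0.25, and 0.29 and 0.17.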
